A study of Mus musculus with 12 samples.

Results

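Marrow of burned mice given a neutralising antibody to the cytokine G-CSF (granulocyte colony-stimulating factor) was compared with marrow of burned mice given an isotype control antibody, gene by gene. The members were taken from the labels alone. They are the 4 libraries of burn with anti-G-CSF (replicates 9 to 12) and the 4 libraries of burn with isotype (replicates 5 to 8), which make up 8 of the 12 libraries of the series. The other 4 libraries, from sham-treated mice given the isotype antibody (replicates 1 to 4), are used as the level of uninjured marrow. All mice were female C57BL/6J of 8 weeks. Every group received an antibody, first 12 hours before injury, then at injury and daily after it, and marrow was taken on day 7. Sham mice given anti-G-CSF were not analysed here, so the antibody's effect in uninjured marrow cannot be told apart from its effect after burn. RNA came from whole marrow without sorting, and in such bulk samples fewer cells of a type and less RNA per cell cannot be told apart. Whether each library stands for its own mouse is not in the labels, so the p-values rest on library-to-library spread that may be technical in part.

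G-CSF, encoded by Csf3, is the main cytokine of neutrophil production. It binds the receptor Csf3r on neutrophil precursors and neutrophils, activates the kinases Jak1, Jak2 and Tyk2 and the transcription factor Stat3, and speeds both the maturation of these cells and their release from marrow. In mice, G-CSF given as a drug is also known to lower the number of marrow macrophages, including those that hold red cell precursors in erythroblastic islands, and to lower B cell production. Marrow is the site where neutrophils, red cells and B cells are all made, so the levels of their genes are read from the same sequenced total.

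Total gene counts ran from 18780399 to 25708084 per library. The table lists 24415 genes, and 15283 of them were expressed highly enough to be tested. Levels are counts scaled to a common library total after TMM scaling (CPM), fold changes are log2 of burn with anti-G-CSF over burn with isotype with their SE, and adjusted p-values are those of edgeR's quasi-likelihood test with Benjamini-Hochberg adjustment over all tested genes. Defining genes of marrow lineages were present in every library. Summed levels over the 12 libraries were 16897 to 57459.8 CPM for mature neutrophil genes, 5078 to 15183 CPM for red cell membrane genes and 1001 to 2502 CPM for B cell precursor genes. The adult globin genes Hba-a1, Hbb-b1, Hbb-b2, Hbb-bs and Hbb-bt had 0 counts in all 12 libraries, and Hba-a2 had 2 counts in replicate 8 only, so hemoglobin itself was not measured. The labels' library protocol speaks of polyadenylated RNA or RNA depleted of ribosomal and globin transcripts without saying which was used, so globin gene levels here may not be those of the marrow. Every library also held transcripts typical of brain, heart and lens. Summed over 18 brain genes, the level was 1335, 862, 925 and 1651 CPM in anti-G-CSF replicates 9 to 12, against 675, 503, 971 and 848 CPM in isotype replicates 5 to 8. In sham it was 574 to 678 CPM. The summed level of 12 heart genes was 644 to 1341 CPM in the anti-G-CSF libraries, 268 to 747 CPM in the isotype libraries and 378 to 469 CPM in sham, and of 14 lens genes 187 to 393 CPM in the anti-G-CSF libraries, 72.8 to 201 CPM in the isotype libraries and 98.7 to 129 CPM in sham. Replicates 9 and 12 had the highest sums of all 3 lists, and the burn groups overlapped in each. Of these lists 12 brain, 11 heart and 7 lens genes were called higher with anti-G-CSF. Those calls fell to 1, 0 and 1 without replicates 9 and 12 and to 0 in each list with the brain-gene level as a covariate. That covariate averages the same 18 brain genes, so the 0 of the brain list was largely set by how it was built. Leaving out 1 burn library alone gave 3 to 16 brain, 0 to 12 heart and 3 to 11 lens genes, with 3, 1 and 5 without anti-G-CSF replicate 9, 4, 1 and 3 without replicate 12, and 3, 0 and 5 without isotype replicate 5. The part of these transcripts in the results was not tested beyond these 2 refits, which are given below where they end the call of a named gene or move the count of a list by over 1.5 times.

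**Figure D1:**
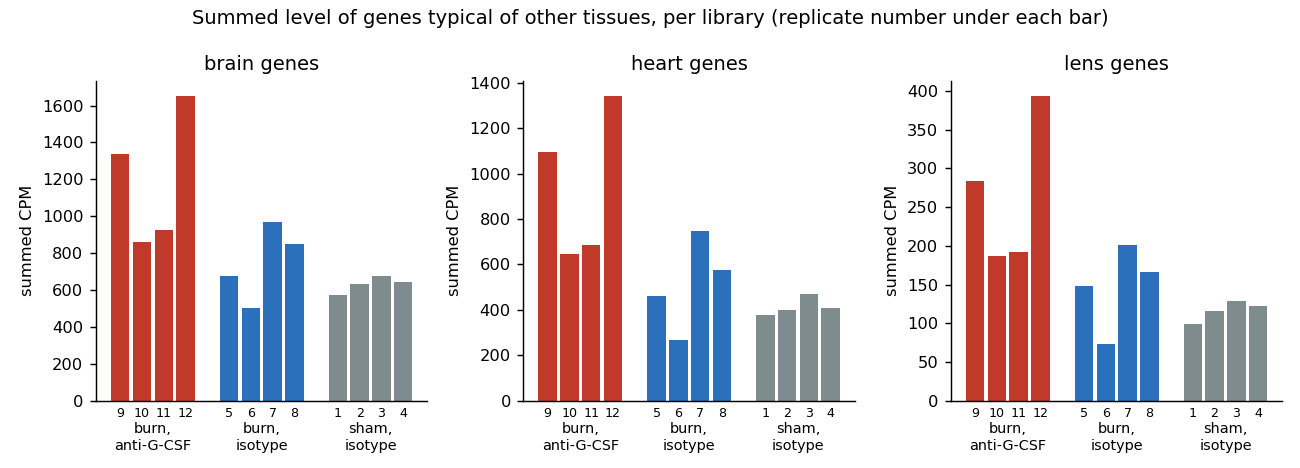
Summed CPM of the brain, heart and lens gene lists in each library, with burn anti-G-CSF left, burn isotype in the middle and sham right. Each bar is 1 library with its replicate number under it. Replicates 9 and 12 of burn with anti-G-CSF stand highest in each panel, at 1335 and 1651 CPM for brain genes.

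Neutralising G-CSF in burned mice went with lower levels of neutrophil genes at every stage of maturation and higher levels of red cell precursor, resident macrophage and B cell genes. Of 15283 tested genes 2703 were higher (17.7%) and 2582 lower (16.9%) with anti-G-CSF, 34.6% in all. Over 2-fold changes were made by 455 higher genes (2.98%) and 429 lower genes (2.81%), and over 4-fold changes by 19 higher and 38 lower genes. The 4 libraries of each group did not overlap for 1983 genes higher (13%) and 2439 genes lower (16%). The median log2 fold change over all tested genes was 0.08. With scaling by library size alone this median was 0.26, a shift of 0.18, and the split became 5762 higher and 1673 lower. Scaling by upper quartile gave 3769 higher and 2193 lower.

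The calls were spread unevenly over abundance. Among genes averaging over 7 log2 CPM 37.6% were lower and 18.5% higher, and among those between 1 and 3 log2 CPM 4.77% were lower and 22.8% higher. Of the 20 most abundant genes 12 were lower and 5 higher. In all, 1332 genes followed the brain-gene level within groups, and of these 627 were called higher and 0 lower. The refit with the brain-gene level as a covariate called 1318 genes higher (8.62%) and 1552 lower (10.2%), and 1128 and 1509 of these were also called without it. Without replicates 9 and 12 the counts were 1280 higher (8.21%) and 1739 lower (11.1%), and 1196 and 1706 of these were also called with all libraries. Of the isotype libraries only replicate 7 reached the antibody range of the brain-gene level. The fit without replicates 9 and 12 rests on antibody replicates 10 and 11 alone. For both reasons a call lost in a refit does not show that a difference between the burn groups was absent. Leaving out isotype replicate 5 gave 1639 genes higher.

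**Figure D2:**
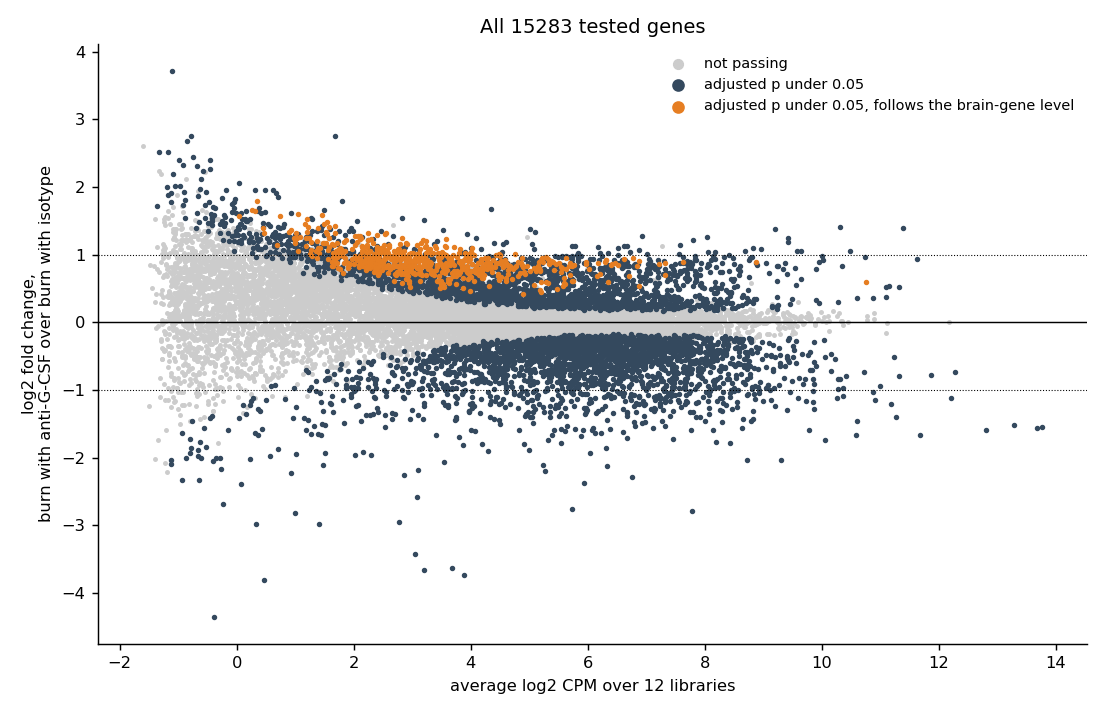
Log2 fold change of each tested gene, burn with anti-G-CSF over burn with isotype, against its average log2 CPM over 12 libraries. Grey points did not pass, dark points had an adjusted p under 0.05, orange points also followed the brain-gene level, and dotted lines mark 2-fold changes. All 627 orange points lie above 0, which the way they were chosen largely set. The most abundant genes lie more often below 0, with 12 of the top 20 lower.

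Most tested genes of the G-CSF receptor pathway were lower with the antibody. Of 20 G-CSF and STAT3 signalling genes 19 passed the expression filter, 13 were lower and 0 higher, with a median log2 fold change of -0.58 against 0.08 for all genes. Csf3 itself had 2 counts in sham replicate 1 and 0 counts elsewhere and was not tested. Csf3r (Entrez gene 12986, chromosome 4, 126024659 to 126044975 in mm10) had 188, 262, 278 and 206 CPM in the 4 anti-G-CSF libraries, against 573, 665, 659.6 and 663 CPM in the 4 isotype libraries. All 4 anti-G-CSF libraries lay below all 4 isotype libraries and also below sham, where Csf3r had 439, 392.2, 460.1 and 506 CPM. Its log2 fold change was -1.45 ± 0.12 (SE), adjusted p = 8.76e-08. Socs3, the feedback inhibitor that Stat3 induces (Entrez gene 12702, chromosome 11, 117966087 to 117969366 in mm10), had 6.64, 11.2, 9.97 and 10.8 CPM in the 4 anti-G-CSF libraries, against 34.8, 43.4, 33.5 and 32.5 CPM in the 4 isotype libraries. The groups did not overlap, and the anti-G-CSF libraries stood in or below the sham range of 10.1 to 17.8 CPM. The log2 fold change of Socs3 was -1.90 ± 0.18, adjusted p = 7.39e-07. Stat3 had 121, 154, 163 and 142 CPM in the 4 anti-G-CSF libraries, against 309, 323, 259.6 and 248 CPM in the 4 isotype libraries. Its groups did not overlap either (-0.97 ± 0.10, adjusted p = 7.48e-07). The activator protein subunit Junb, an early target of cytokine receptors, was lower by the same test at -1.01 ± 0.09, adjusted p = 1.49e-07.

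The Socs3 promoter is shown because this gene is the textbook target of the pathway. The sequence runs from 250 bases before to 50 bases after the RefSeq start (RefSeq, GRCm38.p6), with the match to the STAT motif TTCNNNGAA in capitals.
Socs3 chr11:117969317-117969616, minus strand: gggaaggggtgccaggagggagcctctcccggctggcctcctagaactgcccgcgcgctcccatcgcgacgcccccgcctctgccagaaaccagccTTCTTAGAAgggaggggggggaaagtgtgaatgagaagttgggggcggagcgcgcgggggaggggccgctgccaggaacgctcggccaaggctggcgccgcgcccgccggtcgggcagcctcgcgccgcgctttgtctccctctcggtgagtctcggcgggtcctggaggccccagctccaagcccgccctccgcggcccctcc
The match begins 154 bases before the start. The motif is the same on both strands, and 8.41% of the 12042 tested genes with a promoter in the RefSeq table held it in this window. Of 16 such genes in the G-CSF and STAT3 signalling list 3 held it, as did 3 of 15 erythroid factor, 2 of 10 primary granule, 3 of 23 mature neutrophil, 1 of 14 secondary and tertiary granule, 1 of 13 heme and 0 of 14 red cell membrane promoters. It was held by 11.7% of the 334 genes lower and 9.25% of the 346 genes higher by over 2-fold. A match is a description of the letters only.

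The neutrophil programme was lower from primary granules to mature cells. Primary granules are filled in promyelocytes, secondary and tertiary granules in later precursors, and the mature genes serve chemotaxis and sensing. All 13 tested primary granule genes were lower (median -0.97), as were all 17 secondary and tertiary granule genes (median -1.47) and 25 of 26 mature neutrophil genes (median -1.50). With the brain-gene level as a covariate the lower calls numbered 10, 17 and 24, and without replicates 9 and 12 they numbered 11, 17 and 24. Mpo, the peroxidase of primary granules, had 743, 983, 1057 and 947 CPM in the 4 anti-G-CSF libraries, against 1730.3, 1668, 1492 and 1772 CPM in the 4 isotype libraries. The groups did not overlap, and the log2 fold change was -0.84 ± 0.10, adjusted p = 5.89e-06. The primary granule members with the smallest p were Ms4a3 (-1.11 ± 0.08, adjusted p = 3.88e-08), the protease inhibitor Serpinb1a (-1.30 ± 0.10, adjusted p = 4.98e-08) and the proteinase Prtn3 (-1.28 ± 0.11, adjusted p = 1.94e-07). Ltf, the iron-binding lactoferrin of secondary granules, had 3084, 3831, 4542 and 4090.2 CPM in the 4 anti-G-CSF libraries, against 14145, 12356, 9866 and 10543 CPM in the 4 isotype libraries. Every anti-G-CSF library lay below every isotype library, and the log2 fold change was -1.59 ± 0.13, adjusted p = 1.25e-07. Other secondary and tertiary granule genes were lower as well, among them Wfdc21 (-1.77 ± 0.10, adjusted p = 3.43e-09), the siderophore binder Lcn2 (-1.66 ± 0.12, adjusted p = 4.49e-08) and the citrullinating enzyme Padi4 (-1.35 ± 0.10, adjusted p = 4.15e-08).

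Mature neutrophil genes are those of abundant cytosolic proteins, chemokine receptors and sensors. S100a8, a subunit of calprotectin and the most abundant gene of the table, had 7447, 7642, 8227 and 7669 CPM in the 4 anti-G-CSF libraries, against 22150.0, 24059, 21578 and 22879.5 CPM in the 4 isotype libraries. The groups did not overlap, and sham lay between them at 13896, 11904, 10262 and 10153 CPM. The log2 fold change was -1.55 ± 0.11, adjusted p = 3.88e-08. Cxcr2, the chemokine receptor that draws neutrophils out of marrow, had 112, 157, 204 and 173 CPM in the 4 anti-G-CSF libraries, against 566, 646, 513 and 511 CPM in the 4 isotype libraries. Its anti-G-CSF libraries all lay below sham, which had 319, 284, 331 and 308 CPM, and its log2 fold change against burn with isotype was -1.79 ± 0.14, adjusted p = 1.81e-07. Slfn4 (-2.03 ± 0.13, adjusted p = 2.05e-08), the pattern receptor Clec4e (-1.86 ± 0.13, adjusted p = 3.88e-08) and the formyl peptide receptor Fpr2 (-1.59 ± 0.12, adjusted p = 4.99e-08) were lower as well. The member that moved the other way was the chemerin-binding receptor Ccrl2, with 22.2, 17.03, 13.2 and 13.5 CPM in the 4 anti-G-CSF libraries, against 8.35, 9.54, 10.3 and 11.8 CPM in the 4 isotype libraries. The groups were separate (0.72 ± 0.16, adjusted p = 0.00239).

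Regulators and effectors of the same lineage were lower too. Of 10 granulocyte transcription factors 9 were lower and 0 higher (median -0.86). They include Cebpe, which is needed for secondary granule genes and had 55.6, 72.3, 80.3 and 72.1 CPM in the 4 anti-G-CSF libraries, against 199, 165, 135 and 147 CPM in the 4 isotype libraries. The groups did not overlap (-1.20 ± 0.12, adjusted p = 1.00e-06). Spi1, the PU.1 factor of myeloid cells, was at -1.04 ± 0.12, adjusted p = 4.10e-06, Cebpd at -1.44 ± 0.16, adjusted p = 1.00e-05 and Gfi1 at -0.77 ± 0.09, adjusted p = 5.95e-06. Runx1, named because it was the member that did not pass, was at -0.16 ± 0.07, adjusted p = 0.105. Of 9 tested phagocyte oxidase genes, which make the respiratory burst, 8 were lower (median -0.97), led by Ncf4 (-1.17 ± 0.11, adjusted p = 5.42e-07), Cyba (-0.97 ± 0.10, adjusted p = 1.06e-06) and Cybb (-1.10 ± 0.12, adjusted p = 1.44e-06). Of 10 tested genes of neutrophil retention and release 6 were lower and 2 higher. The integrin subunits Itgam (-1.28 ± 0.11, adjusted p = 1.72e-07) and Itgb2 (-1.02 ± 0.13, adjusted p = 1.20e-05) were lower, and Vcam1, which is also a macrophage and stromal adhesion molecule, was higher. Of 21 tested glycolysis and glycogen genes 17 were lower and 1 higher (median -0.66). The lower ones include the regulator Pfkfb4 (-1.38 ± 0.11, adjusted p = 6.34e-08), glycogen synthase Gys1 (-1.06 ± 0.09, adjusted p = 8.35e-08) and the glucose transporter Slc2a3 (-1.19 ± 0.11, adjusted p = 6.38e-07). The higher one was the muscle-type phosphofructokinase Pfkm (0.73 ± 0.12, adjusted p = 9.97e-05).

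Promoters of Ngp and Ltf are shown as the most abundant secondary granule genes that were lower, with matches to the C/EBP motif TTNNGNAA or its reverse complement TTNCNNAA in capitals (RefSeq, GRCm38.p6, from 250 bases before to 50 after the start).
Ngp chr9:110419558-110419857, plus strand: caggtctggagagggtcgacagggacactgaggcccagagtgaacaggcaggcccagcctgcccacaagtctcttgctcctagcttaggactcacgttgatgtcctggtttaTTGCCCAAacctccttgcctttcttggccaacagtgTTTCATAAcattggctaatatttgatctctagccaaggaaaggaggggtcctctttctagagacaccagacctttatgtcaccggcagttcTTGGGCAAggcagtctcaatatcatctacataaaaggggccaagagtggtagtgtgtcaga
Ltf chr9:111019042-111019341, plus strand: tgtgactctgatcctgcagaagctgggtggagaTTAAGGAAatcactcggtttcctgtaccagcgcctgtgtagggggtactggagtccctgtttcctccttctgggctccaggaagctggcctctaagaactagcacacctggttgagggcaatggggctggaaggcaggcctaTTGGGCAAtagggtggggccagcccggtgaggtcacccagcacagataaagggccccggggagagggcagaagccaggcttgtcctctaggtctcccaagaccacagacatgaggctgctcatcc
Ngp, a cathelicidin-like granule protein, held 3 matches, the first 138 and the last 11 bases before the start, and Ltf held 2, the first 217 and the last 75 bases before it. The motif was held by 36.3% of the 12042 promoters of tested genes, by 50% of the 334 promoters of genes lower by over 2-fold and by 38.2% of the 346 promoters of genes higher by over 2-fold. It was held by 10 of 14 promoters of the secondary and tertiary granule list, by 15 of 23 of the mature neutrophil list, by 4 of 10 of the primary granule list and by 3 of 16 of the G-CSF and STAT3 signalling list. Of the red cell lists 6 of 14 membrane, 6 of 15 erythroid factor and 5 of 13 heme promoters held it. These shares are descriptions, and no match was tied to binding of a factor.

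**Figure D3:**
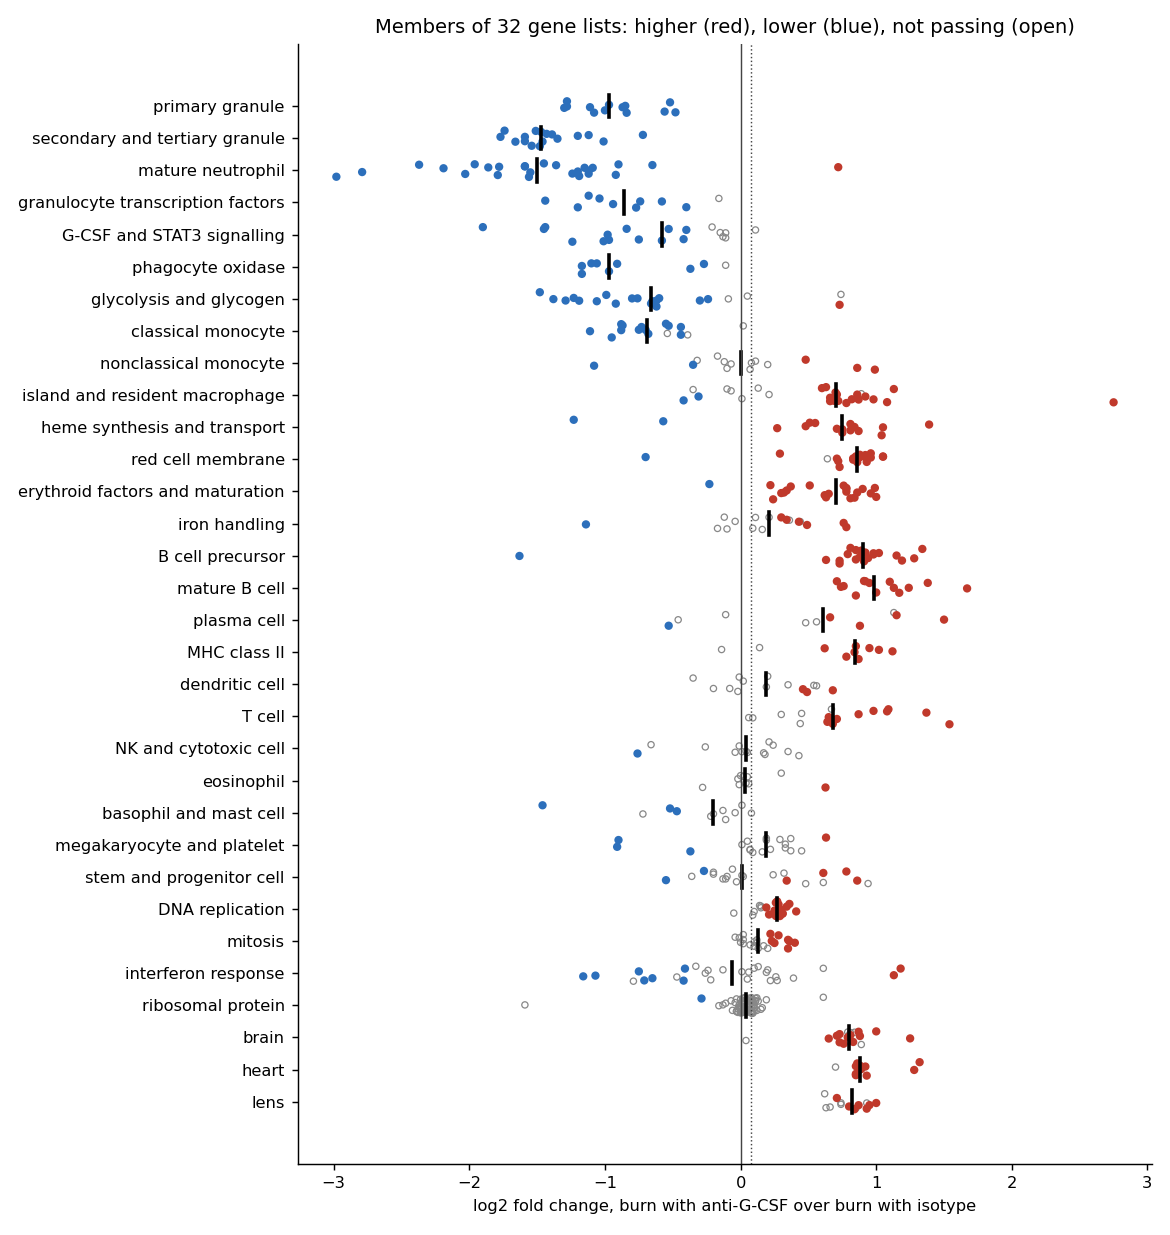
Log2 fold change, burn with anti-G-CSF over burn with isotype, of the tested members of 32 gene lists, 1 list per row. Filled red points were higher and filled blue points lower at an adjusted p under 0.05, open points did not pass, thick black bars are list medians, and the dotted line is the median of all tested genes at 0.08. Neutrophil lists lie left, down to a median of -1.50, and red cell, macrophage and B cell lists lie right, up to 0.98 for mature B cells. The brain, heart and lens lists also lie right, with medians of 0.80, 0.88 and 0.82.

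Monocyte genes divided. Of 16 classical monocyte genes 13 were lower and 0 higher (median -0.69), a count that was 8 lower in each of the refits with the brain-gene level and without replicates 9 and 12. Ly6c2, the surface marker of classical monocytes in mice, had 287, 347, 393 and 343 CPM in the 4 anti-G-CSF libraries, against 741, 704, 566 and 642 CPM in the 4 isotype libraries. The groups did not overlap (-0.95 ± 0.11, adjusted p = 5.34e-06). The lysozyme gene Lyz2, which neutrophils also express, was at -1.11 ± 0.14, adjusted p = 9.09e-06, and Ms4a6c at -0.73 ± 0.09, adjusted p = 7.73e-06. Vcan, a proteoglycan of monocytes (Entrez gene 13003, chromosome 13, 89655310 to 89742512 in mm10), had 63.9, 67.3, 57.2 and 74.7 CPM in the 4 anti-G-CSF libraries, against 136, 112, 130.1 and 105 CPM in the 4 isotype libraries. The antibody libraries lay below the isotype libraries (-0.88 ± 0.10, adjusted p = 4.63e-06), yet all 8 burn libraries lay above the 22.3, 20.1, 22.8 and 17.3 CPM of sham. Of 14 tested nonclassical monocyte genes 3 were higher and 2 lower, with a median of 0.00, and 1 was lower in each refit. These shares are near the 17.7% higher and 16.9% lower of all tested genes. Log2 fold changes in the list ran from -1.08 to 0.99, and the member with the smallest p was 1 of the 2 lower. The 3 higher were the fatty acid transporter Cd36 (0.86 ± 0.15, adjusted p = 5.02e-04), which red cell precursors also express, the fatty acid binder Fabp4 (0.99 ± 0.19, adjusted p = 8.51e-04) and the enolase Eno3 (0.48 ± 0.11, adjusted p = 0.00364). With the brain-gene level as a covariate Fabp4 and Eno3 no longer passed (adjusted p = 0.0506 and adjusted p = 0.145), nor did Eno3 without replicates 9 and 12 (adjusted p = 0.0501). The higher count of the list was still 3 in each of these 2 refits, because other members passed there. The list medians in them were 0.20 and 0.19.

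Of 19 tested inflammatory cytokine and NF-kB genes 6 were lower and 2 higher. This count and those of the interferon and immediate early lists below are to be read beside all tested genes, 16.9% lower and 17.7% higher. The cytokine Il1b had 8.39, 11.7, 12.3 and 13.3 CPM in the 4 anti-G-CSF libraries, against 28.5, 83.0, 43.4 and 55.1 CPM in the 4 isotype libraries. Its groups did not overlap, and sham, at 57.9, 55.7, 54.5 and 37.7 CPM, lay within the isotype range (-2.19 ± 0.29, adjusted p = 1.03e-04). Tnf was lower at -0.97 ± 0.16, adjusted p = 1.30e-04. With the brain-gene level as a covariate, without replicates 9 and 12, and with library-size scaling, 3 genes of this list were lower. The higher count was 1 in each of the first 2 of these refits and 5 with library-size scaling. Of 28 interferon response genes 7 were lower and 2 higher, and 2 were lower under each of the first 2 of these refits. The higher count was 4 with the brain-gene level as a covariate and 5 without isotype replicate 6 or with library-size scaling. The antiviral gene Rsad2 had 1262, 897, 884 and 739 CPM in the 4 anti-G-CSF libraries, against 333, 422, 428 and 482 CPM in the 4 isotype libraries. No library of either group crossed into the other (1.18 ± 0.15, adjusted p = 2.26e-05), and Isg15, the ubiquitin-like modifier, was higher at 1.13 ± 0.21, adjusted p = 0.00147. Ifitm3 (-1.07 ± 0.16, adjusted p = 1.94e-04) and Oas2 (-1.16 ± 0.20, adjusted p = 5.90e-04) were lower. Of 15 tested immediate early genes 6 were higher and 6 lower. The lower ones include Ier3 (-1.22 ± 0.14, adjusted p = 4.66e-06) and the RNA-binding Zfp36 (-0.63 ± 0.08, adjusted p = 1.66e-05). The higher count was 2 with the brain-gene level as a covariate and 3 without replicates 9 and 12 and without isotype replicate 5 or 6 or anti-G-CSF replicate 9 or 12, each left out alone.

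Genes of island and resident macrophages were higher with the antibody. Of 26 genes in the list 17 were higher and 2 lower (median 0.70), and 15 and 16 were higher in the 2 refits. Spic, the transcription factor of red pulp and island macrophages, had 21.4, 15.2, 14.7 and 10.99 CPM in the 4 anti-G-CSF libraries, against 11.7, 6.67, 7.03 and 9.83 CPM in the 4 isotype libraries. The groups overlapped, since replicate 12 with anti-G-CSF lay below isotype replicate 5, and the log2 fold change was 0.82 ± 0.20, adjusted p = 0.00463. Vcam1, the adhesion molecule through which macrophages hold erythroblasts, had 294, 229, 291 and 249 CPM in the 4 anti-G-CSF libraries, against 184, 161, 137 and 177 CPM in the 4 isotype libraries. These groups did not overlap (0.69 ± 0.10, adjusted p = 5.41e-05). The mannose receptor Mrc1 had 137, 97.7, 124 and 98.0 CPM in the 4 anti-G-CSF libraries, against 64.0, 67.1, 53.8 and 66.0 CPM in the 4 isotype libraries. Its groups were also separate (0.87 ± 0.11, adjusted p = 8.10e-06). Axl, a receptor for dying cells (0.66 ± 0.10, adjusted p = 6.70e-05), and Siglec1, the sialoadhesin of resident macrophages (0.86 ± 0.13, adjusted p = 8.53e-05), were higher. Maea, an adhesion protein named for macrophages and erythroblasts, was lower with 105 ± 11.02 CPM in anti-G-CSF libraries and 141 ± 10.6 CPM in isotype libraries (SD, n = 4 each, -0.42 ± 0.08, adjusted p = 7.61e-04). Cd68, a lysosomal protein that monocytes share, was lower at -0.31 ± 0.11, adjusted p = 0.0395. It did not pass with the brain-gene level as a covariate (adjusted p = 0.56), without replicates 9 and 12 (adjusted p = 0.219), with library-size or upper quartile scaling, by limma-voom, with only the 2 groups compared or without isotype replicate 5, 6 or 8 or anti-G-CSF replicate 9, 10 or 12, each left out alone. The pan-macrophage marker Adgre1, chosen after its values were seen, had 99.1 ± 13.4 CPM with anti-G-CSF and 98.7 ± 9.17 CPM with isotype (SD, n = 4 each, 0.01 ± 0.10, adjusted p = 0.975).

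Red cell precursor genes were higher across heme synthesis, the membrane skeleton and the factors that direct them. Of 16 genes of heme synthesis and transport 14 were higher and 2 lower (median 0.75), of 21 red cell membrane genes 19 were higher and 1 lower (median 0.86), and of 22 erythroid factor and maturation genes 21 were higher and 1 lower (median 0.70). Alas2, the first and rate-limiting enzyme of the heme pathway in erythroid cells (Entrez gene 11656, chromosome X, 150547417 to 150570622 in mm10), had 4864, 3269.7, 3341 and 2772 CPM in the 4 anti-G-CSF libraries, against 1028, 1387, 1428 and 1598 CPM in the 4 isotype libraries. The groups did not overlap, and the antibody libraries spread around the 2983, 3023, 3084 and 3248 CPM of sham. The log2 fold change was 1.39 ± 0.15, adjusted p = 3.30e-06. Urod, a later enzyme of the same pathway (0.81 ± 0.10, adjusted p = 1.16e-05), and the mitochondrial carrier Slc25a39 (1.04 ± 0.12, adjusted p = 6.96e-06) were higher. The 2 lower members were Alas1, the housekeeping isozyme of Alas2 (-1.23 ± 0.09, adjusted p = 4.11e-08), and the heme exporter Mfsd7b (-0.57 ± 0.10, adjusted p = 1.88e-04).

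In the membrane list Rhag, an ammonia channel subunit of the Rh complex, had 342, 301, 261 and 263 CPM in the 4 anti-G-CSF libraries, against 116, 169, 154 and 175 CPM in the 4 isotype libraries. The groups stayed apart (0.93 ± 0.11, adjusted p = 9.22e-06). The spectrin Sptb (0.85 ± 0.11, adjusted p = 8.87e-06) and the adducin Add2 (0.86 ± 0.11, adjusted p = 1.15e-05) were higher. The member that was lower was the glucose transporter Slc2a1 (-0.70 ± 0.13, adjusted p = 4.68e-04). Gata1, the master regulator of erythroid genes, had 104, 100.3, 98.1 and 99.7 CPM in the 4 anti-G-CSF libraries, against 48.8, 78.0, 58.4 and 71.2 CPM in the 4 isotype libraries. Its groups did not overlap, with the 4 antibody libraries close together (0.65 ± 0.11, adjusted p = 2.39e-04). Klf1, which switches on red cell genes, had 188, 152, 152 and 161 CPM in the 4 anti-G-CSF libraries, against 73.2, 116, 90.6 and 99.6 CPM in the 4 isotype libraries. The erythropoietin receptor Epor had 102, 90.1, 81.0 and 75.5 CPM in the 4 anti-G-CSF libraries, against 35.1, 57.5, 47.2 and 59.5 CPM in the 4 isotype libraries. Neither gene overlapped between groups, and the log2 fold change was 0.78 ± 0.12, adjusted p = 1.04e-04 for Klf1 and 0.81 ± 0.13, adjusted p = 2.55e-04 for Epor. Zfpm1, the partner protein of Gata1, was at 0.84 ± 0.10, adjusted p = 7.93e-06, and Bnip3l, which removes mitochondria from maturing red cells, at 0.78 ± 0.11, adjusted p = 2.04e-05. Nfe2 was lower at -0.23 ± 0.08, adjusted p = 0.0388, a call lost with the brain-gene level as a covariate (adjusted p = 0.61), without replicates 9 and 12 (adjusted p = 0.106), with library-size or upper quartile scaling, by limma-voom with sample weights and without isotype replicate 5 or 6 or anti-G-CSF replicate 10, 11 or 12, each alone. Of 11 listed globin genes 3 passed the filter, the theta globins Hbq1a and Hbq1b and the embryonic Hbb-y, and all 3 were higher. Hbq1b had 37.7, 26.1, 25.2 and 20.7 CPM in the 4 anti-G-CSF libraries, against 12.8, 14.5, 12.9 and 16.7 CPM in the 4 isotype libraries. There was no overlap between groups (0.95 ± 0.15, adjusted p = 1.26e-04). Hbb-y averaged 0.704 ± 0.423 CPM with anti-G-CSF and 0.142 ± 0.165 CPM with isotype (SD, n = 4 each). It lost its call with the brain-gene level as a covariate (adjusted p = 0.133), without replicates 9 and 12 (adjusted p = 0.192) and without anti-G-CSF replicate 12 or isotype replicate 7 or 8 alone.

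Of 17 tested iron handling genes 6 were higher and 1 lower, and 11 were higher with library-size scaling. Tfrc, the transferrin receptor that brings iron into red cell precursors, had 1389, 1266, 1077 and 1044 CPM in the 4 anti-G-CSF libraries, against 598, 749, 677 and 756 CPM in the 4 isotype libraries. All 4 libraries of a group lay on 1 side of the other 4 (0.78 ± 0.10, adjusted p = 1.45e-05). The iron transporter Slc11a2 was higher (0.76 ± 0.10, adjusted p = 1.46e-05), and Fbxl5, the iron-sensing ubiquitin ligase adaptor, was lower (-1.14 ± 0.09, adjusted p = 4.89e-08). The Alas2 promoter is shown because Alas2 was among the 12 largest rises, with the match to the GATA motif AGATAA or its reverse complement TTATCT in capitals (RefSeq, GRCm38.p6).
Alas2 chrX:150547167-150547466, plus strand: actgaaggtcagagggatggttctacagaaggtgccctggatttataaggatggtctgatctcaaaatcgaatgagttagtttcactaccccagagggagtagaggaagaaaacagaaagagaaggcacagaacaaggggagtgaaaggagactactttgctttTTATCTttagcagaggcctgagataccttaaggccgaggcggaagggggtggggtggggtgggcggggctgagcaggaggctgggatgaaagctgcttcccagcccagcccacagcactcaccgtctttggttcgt
The match begins 86 bases before the start. The motif was held by 8.3% of the promoters of tested genes, by 9.25% of those higher and 8.38% of those lower by over 2-fold. Among the red cell lists 4 of 14 membrane, 4 of 15 erythroid factor and 2 of 13 heme promoters held it. Among the neutrophil lists 3 of 14 secondary and tertiary granule, 4 of 23 mature neutrophil and 0 of 10 primary granule promoters did, as did 1 of 16 in the G-CSF and STAT3 signalling list.

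**Figure D4:**
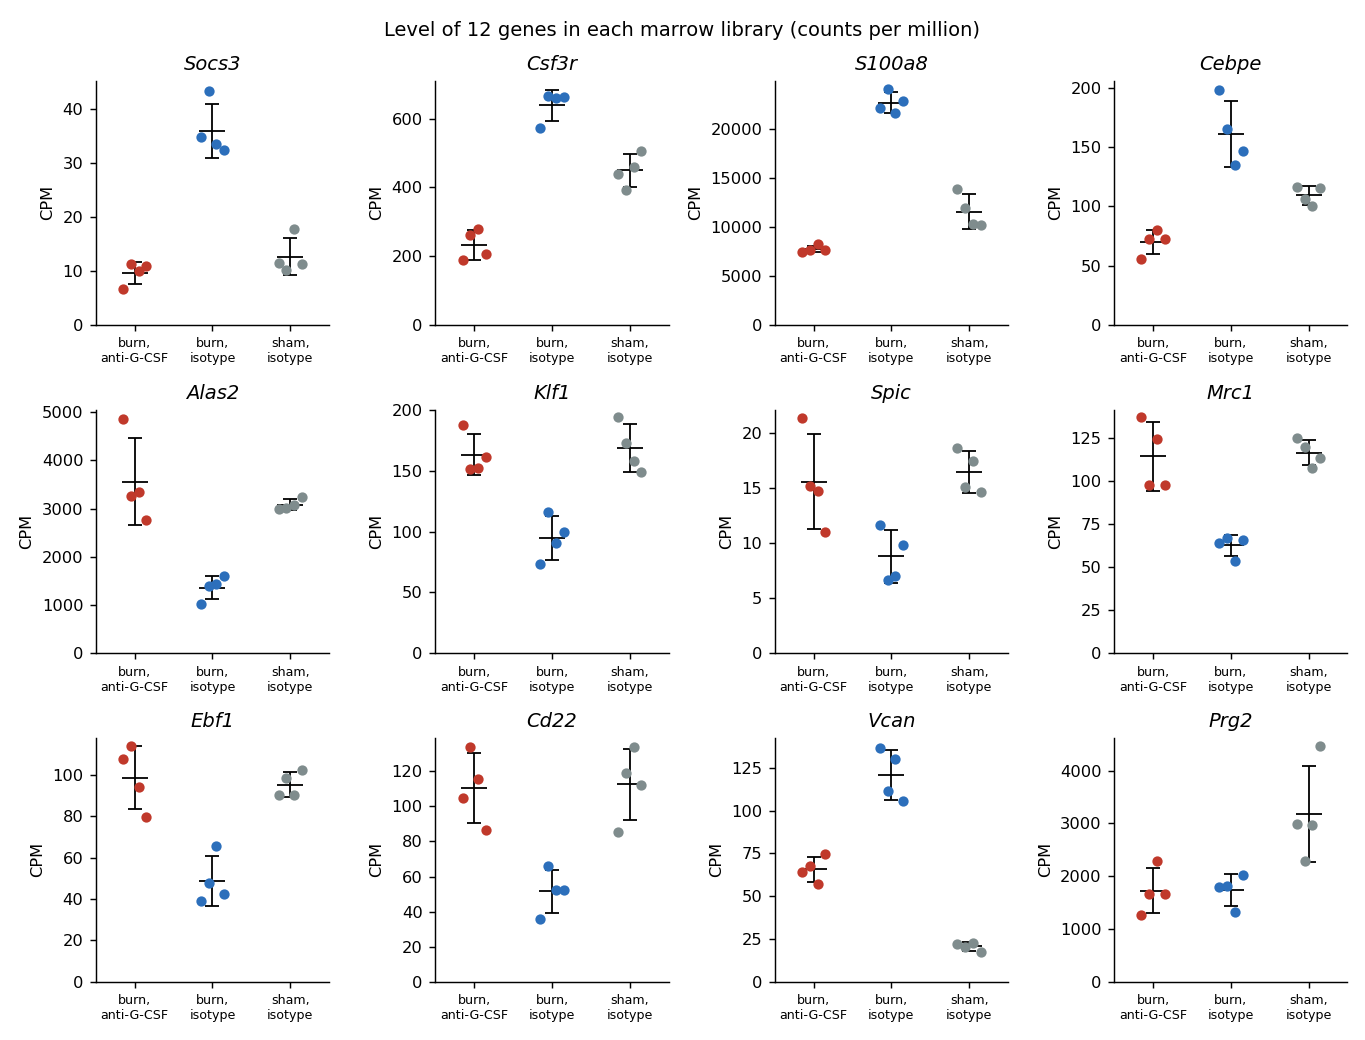
CPM of single genes in each library on axes that start at 0, with burn anti-G-CSF left, burn isotype in the middle and sham right. Points are libraries, and horizontal lines with whiskers are group means ± SD. Neutrophil and pathway genes such as Socs3, at 9.66 ± 2.08 CPM with anti-G-CSF and 36.1 ± 5.01 CPM with isotype (SD, n = 4 each), are lowest in the antibody group, and Alas2, at 3562 ± 904 CPM with anti-G-CSF and 1360.0 ± 239.7 CPM with isotype, is higher in it.

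B cell genes were higher in both precursor and mature lists. Of 20 B cell precursor genes 19 were higher and 1 lower (median 0.90), and 12 were higher with the brain-gene level as a covariate. All 14 mature B cell genes were higher (median 0.98), 13 and 14 of them in the 2 refits. Ebf1, the factor that commits cells to the B lineage, had 108, 114, 94.2 and 79.5 CPM in the 4 anti-G-CSF libraries, against 39.1, 47.8, 65.9 and 42.5 CPM in the 4 isotype libraries. Its groups did not overlap (1.02 ± 0.14, adjusted p = 7.95e-05). Igll1, a part of the surrogate light chain, had 58.4, 26.3, 49.0 and 51.1 CPM in the 4 anti-G-CSF libraries, against 17.6, 14.2, 24.3 and 16.9 CPM in the 4 isotype libraries. Its groups were also separate (1.34 ± 0.24, adjusted p = 0.00116), as were those of the adaptor Blnk (0.85 ± 0.11, adjusted p = 2.10e-05). The member that was lower was Bst1, which neutrophils also carry, with 32.2, 36.5, 39.3 and 40.4 CPM in the 4 anti-G-CSF libraries, against 135, 128, 99.2 and 98.6 CPM in the 4 isotype libraries. It was separate between groups in the other direction (-1.63 ± 0.12, adjusted p = 6.63e-08). Among mature genes the homing receptor Ccr7 had 17.1, 24.3, 23.6 and 16.2 CPM in the 4 anti-G-CSF libraries, against 7.35, 10.8, 9.46 and 6.91 CPM in the 4 isotype libraries. All 4 antibody libraries were above all 4 isotype libraries (1.24 ± 0.18, adjusted p = 3.57e-05). Cr2, a complement receptor of mature B cells, had 21.0, 28.5, 42.0 and 20.004 CPM in the 4 anti-G-CSF libraries, against 3.29, 18.4, 6.16 and 7.62 CPM in the 4 isotype libraries. It had the largest rise of the genes named by size, 1.67 ± 0.43, adjusted p = 0.011, with a wide isotype spread. The low-affinity IgE receptor Fcer2a (1.38 ± 0.33, adjusted p = 0.00733) and the inhibitory receptor Cd22 (1.10 ± 0.19, adjusted p = 6.41e-04) were higher too.

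Of 10 tested plasma cell genes 4 were higher and 1 lower, and 2 were higher and 0 lower with the brain-gene level as a covariate. Mzb1, a chaperone of antibody secretion, had 38.7 ± 5.42 CPM with anti-G-CSF and 17.4 ± 2.10 CPM with isotype (SD, n = 4 each, 1.15 ± 0.16, adjusted p = 3.45e-05). Xbp1 was lower (-0.53 ± 0.10, adjusted p = 6.67e-04), a call lost with the covariate (adjusted p = 0.0606). Of 10 MHC class II genes 8 were higher, but 4 were without isotype replicate 5. Ciita, the activator of class II genes, was at 0.95 ± 0.14, adjusted p = 5.41e-05 with no overlap between groups. Of 14 dendritic cell genes 3 were higher (median 0.19), near the 17.7% of all tested genes. The count was 9 with library-size scaling and 5 without isotype replicate 6. Of 16 T cell genes 10 were higher, but 5 were without replicates 9 and 12 and 5 without isotype replicate 5. The T cell kinase Lck had 26.6, 26.1, 32.6 and 26.1 CPM in the 4 anti-G-CSF libraries, against 13.3, 20.9, 17.3 and 19.4 CPM in the 4 isotype libraries. The groups were separate (0.65 ± 0.13, adjusted p = 9.89e-04). Cd8a was higher at 1.37 ± 0.37, adjusted p = 0.0142, a call lost without isotype replicate 5 and without replicates 9 and 12 (adjusted p = 0.0512). Of 14 NK and cytotoxic genes 1 was lower, Nkg7 (-0.76 ± 0.13, adjusted p = 1.59e-04), and 2 were higher with the brain-gene level as a covariate.

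Calls in other marrow lineages are to be read beside the 17.7% higher and 16.9% lower of all tested genes. Of 10 eosinophil genes 1 was higher, the eotaxin receptor Ccr3 (0.62 ± 0.14, adjusted p = 0.00388), and the groups overlapped. Prg2, the main protein of eosinophil granules, chosen after its values were seen, had 1723 ± 425 CPM with anti-G-CSF and 1738 ± 300.1 CPM with isotype (SD, n = 4 each, -0.01 ± 0.21, adjusted p = 0.974). Of 11 tested basophil and mast cell genes 3 were lower, a share above that 16.9%. Hdc, the histamine-forming enzyme that neutrophil precursors also express, had 115, 134, 194 and 136 CPM in the 4 anti-G-CSF libraries, against 403, 434, 369.6 and 390.0 CPM in the 4 isotype libraries. No library of either group crossed into the other (-1.46 ± 0.12, adjusted p = 1.71e-07). The lower count of this list was 1 without anti-G-CSF replicate 9, without replicates 9 and 12 and with library-size scaling. Of 19 megakaryocyte and platelet genes 3 were lower and 1 higher, including the granule protein Nbeal2 (-0.91 ± 0.10, adjusted p = 1.85e-06) and the adhesion receptor Selp (-0.90 ± 0.18, adjusted p = 9.02e-04) among the lower. The higher count was 0 in both refits. Of 21 stem and progenitor genes 4 were higher and 2 lower, no more than those shares or close to them, with a median of 0.01. With the brain-gene level as a covariate 2 were higher. The lower count was 1 in each refit. Mllt3 (0.78 ± 0.10, adjusted p = 6.91e-06) and the RNA-binding Msi2 (0.61 ± 0.12, adjusted p = 6.97e-04) were higher and Erg lower (-0.55 ± 0.12, adjusted p = 0.00188).

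Most DNA replication genes were slightly higher. Of 22 DNA replication genes 16 were higher and 0 lower (median 0.27), 12 with the brain-gene level as a covariate, 6 without replicates 9 and 12 and 10 without isotype replicate 7. The replication licensing factor Cdc6 had 108, 112, 109.6 and 108 CPM in the 4 anti-G-CSF libraries, against 76.2, 93.7, 73.2 and 85.9 CPM in the 4 isotype libraries. The groups stayed apart (0.41 ± 0.08, adjusted p = 6.80e-04). Of 22 mitosis genes 8 were higher (median 0.13), and this count ran from 2 with the covariate to 20 with library-size scaling. It was 3 without replicates 9 and 12, and 5 without isotype replicate 5 or 8 or anti-G-CSF replicate 9, each alone. Mki67, the proliferation marker, had 2238, 2192, 1827 and 2010.2 CPM in the 4 anti-G-CSF libraries, against 1531, 1656, 1663 and 1608 CPM in the 4 isotype libraries. There was no overlap between groups (0.36 ± 0.09, adjusted p = 0.00416). Of 79 tested ribosomal protein genes 0 were higher and 1 lower (median 0.04). In the refits 1 higher and 0 lower passed with the brain-gene level and 0 in either direction without replicates 9 and 12, and 66 were higher with library-size scaling. Of 75 tested oxidative phosphorylation genes 3 were higher and 4 lower (median 0.00), and 34 higher and 0 lower with that scaling. The lower count was 0 to 2 without isotype replicate 5 or 6 or anti-G-CSF replicate 9, 10 or 11, each alone, and in the 2 refits.

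Of 22 cholesterol synthesis and uptake genes 11 were lower and 0 higher (median -0.25), 5 in each of the refits with the brain-gene level, without replicates 9 and 12 and with library-size scaling, and 7 without isotype replicate 5 or anti-G-CSF replicate 9 or 11. The pathway enzymes Msmo1 (-0.71 ± 0.09, adjusted p = 1.68e-05) and Mvd (-0.82 ± 0.12, adjusted p = 3.82e-05) were lower. Of 9 glucocorticoid response genes 2 were lower, and 4 without anti-G-CSF replicate 11. The lower count was 0 in both refits and with library-size scaling, where 1 was higher. The stroma list had 2 higher and 1 lower of 16 tested genes (median 0.22), below the 17.7% higher and 16.9% lower of all tested genes. Its higher count was 5 with library-size scaling and 1 in each refit. The osteoblast phosphatase Alpl was higher (1.10 ± 0.19, adjusted p = 2.70e-04) and the bone matrix protein Spp1 lower (-0.75 ± 0.17, adjusted p = 0.00294). Of 6 tested osteoclast genes 1 was higher, the phosphatase Acp5 (0.72 ± 0.13, adjusted p = 5.19e-04), and 1 lower. The lower count was 0 in both refits and without isotype replicate 5 or 6 or anti-G-CSF replicate 9 or 10, and 2 without isotype replicate 7 or anti-G-CSF replicate 12. Of 15 endothelial genes 4 were higher (median 0.37), beside 17.7% of all tested genes. This count was 1 to 2 without isotype replicate 5 or 7 or anti-G-CSF replicate 12 and in the 2 refits. The junction protein Pecam1 was higher at 0.37 ± 0.07, adjusted p = 7.86e-04. Of 8 tested skeletal muscle genes 2 were higher, 4 with library-size scaling and 1 in each refit. The summed level of this list was 35.7 to 50.2 CPM in the anti-G-CSF libraries, 21.1 to 36.7 CPM in the isotype libraries and 27.5 to 32.2 CPM in sham.

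Among single genes of at least 3 average log2 CPM with no overlap between groups, the largest falls were led by the lipase Lipg, the secreted chemoattractant Prok2 and the uridine phosphorylase Upp1. Lipg had 1.70, 2.28, 4.54 and 2.26 CPM in the 4 anti-G-CSF libraries, against 51.4, 33.9, 26.1 and 32.3 CPM in the 4 isotype libraries. The antibody libraries lay below or within the range of sham, which had 3.72, 2.94, 7.36 and 8.11 CPM, and the log2 fold change was -3.73 ± 0.38, adjusted p = 1.42e-05. Prok2 had 1.90, 2.14, 1.90 and 1.21 CPM in the 4 anti-G-CSF libraries, against 33.3, 32.8, 11.1 and 12.6 CPM in the 4 isotype libraries. The isotype libraries formed a higher and a lower pair, and the log2 fold change was -3.65 ± 0.49, adjusted p = 1.22e-04. Upp1 had 2.496, 2.37, 2.51 and 2.26 CPM in the 4 anti-G-CSF libraries, against 34.3, 29.0, 25.7 and 31.1 CPM in the 4 isotype libraries. The 4 values of each group were close together (-3.64 ± 0.19, adjusted p = 1.95e-09). Acod1, which makes itaconate in activated myeloid cells, was at -3.43 ± 0.32, adjusted p = 6.15e-07, the secreted glycoprotein Lrg1 at -2.79 ± 0.20, adjusted p = 4.00e-07 and the membrane protein Ifitm1 at -2.76 ± 0.12, adjusted p = 1.94e-10. The other falls named by this rule, from -2.58 to -2.13, were in Foxd4, the protease Asprv1, the inhibitory receptor Lilr4b, Il1b, Sycp2 and the TGF-beta family receptor Acvrl1.

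The largest rises by the same rule were smaller than these falls, Cr2 included. The rule takes only genes whose groups do not overlap, so the lack of overlap below was a condition of choice. It also leaves out genes that follow the brain-gene level, of which 627 were called higher and 0 lower. Among all tested genes 19 were over 4-fold higher, and this rule names none of them. Of these 19 genes 0 followed the brain-gene level, so the other conditions of the rule left them out. The p38 kinase Mapk11 had 13.8, 10.9, 14.9 and 11.2 CPM in the 4 anti-G-CSF libraries, against 2.55, 5.90, 4.47 and 4.96 CPM in the 4 isotype libraries. Its groups did not overlap (1.51 ± 0.23, adjusted p = 6.91e-05). Bpgm, which makes the regulator of hemoglobin's oxygen affinity, had 2295, 1459.9, 1596 and 1290.5 CPM in the 4 anti-G-CSF libraries, against 460.3, 629, 672 and 751 CPM in the 4 isotype libraries. Its antibody libraries were all above its isotype libraries (1.40 ± 0.17, adjusted p = 1.24e-05). The retinaldehyde dehydrogenase Aldh1a1 was at 1.27 ± 0.15, adjusted p = 1.41e-05 and the conjugating enzyme Ube2l6 at 1.25 ± 0.13, adjusted p = 1.14e-06. Others by this rule were Alas2, Fcer2a, Cd8a, Igll1, the calcium channel Cacna1i (1.30 ± 0.22, adjusted p = 3.37e-04) and Fam220a (1.26 ± 0.16, adjusted p = 2.59e-05). Among the most abundant called genes, the anion exchanger Slc4a1 (0.93 ± 0.13, adjusted p = 2.21e-05), the poly(A)-binding Pabpc1 (0.53 ± 0.11, adjusted p = 0.00108), the peroxidase Gpx1 (0.54 ± 0.13, adjusted p = 0.00336) and Serinc3 (0.37 ± 0.08, adjusted p = 0.00172) were higher. S100a9 (-1.56 ± 0.12, adjusted p = 5.77e-08), Ngp (-1.51 ± 0.13, adjusted p = 2.07e-07) and the actin Actb (-0.73 ± 0.11, adjusted p = 4.98e-05) were lower.

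Burn with anti-G-CSF was then set against sham with isotype to place these levels relative to uninjured marrow. This comparison uses the same antibody libraries as the first, so its calls are not independent of it. Of 15283 genes 1083 were higher (7.09%) and 598 lower (3.91%), 11% in all, and 768 (5.03%) and 27 (0.177%) changed by over 2-fold, with a median log2 fold change of -0.005. These counts changed with single libraries and with the brain-gene level. They were 12 higher and 5 lower with the brain-gene level as a covariate, and 18 and 17 without replicates 9 and 12. Leaving out sham replicate 1, 2, 3 or 4 alone gave 148, 214, 638 or 295 higher, and leaving out anti-G-CSF replicate 9 or 12 alone gave 172 or 220. Genes lower numbered 238, 229 or 253 without sham replicate 1, 2 or 4 and 177 or 276 without anti-G-CSF replicate 9 or 12. Summed brain genes in the antibody libraries were above all 4 sham libraries. The brain-gene level was 4.89 to 5.87 log2 CPM in the antibody libraries and 4.20 to 4.53 in sham. The covariate refit therefore cannot tell the group from the brain-gene level here. The refit without replicates 9 and 12 rests on antibody replicates 10 and 11 alone. A call lost in either refit therefore does not show that the difference was absent. The same test called 0 of 26 island macrophage genes, 0 of 22 erythroid factor genes and 0 of 14 mature B cell genes in either direction, with list medians of -0.06, 0.02 and -0.08. A missed threshold does not show that the levels were equal.

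Neutrophil genes were lower than in sham in this fit. Of the primary granule, secondary and tertiary granule and mature neutrophil lists 8 of 13, 16 of 17 and 21 of 26 genes were lower, with medians of -0.37, -0.59 and -0.65. With the brain-gene level as a covariate these lower calls numbered 0, 0 and 1, with medians of -0.26, -0.37 and -0.45. Without replicates 9 and 12 they numbered 0, 1 and 3, with medians of -0.25, -0.48 and -0.53. Csf3r was at -0.94 ± 0.12, adjusted p = 4.91e-04, and still passed in both refits (adjusted p = 0.0463 and adjusted p = 0.00521). Of 14 tested nonclassical monocyte genes 8 were higher than in sham, with a median of 0.49. With the brain-gene level as a covariate 7 of them were higher (median 0.78), and without replicates 9 and 12 also 7 (median 0.66). The matrix proteoglycan Vcan was at 1.67 ± 0.11, adjusted p = 2.12e-07, which also passed in both refits (adjusted p = 1.42e-05 and adjusted p = 4.33e-06). Il1b was at -2.17 ± 0.29, adjusted p = 0.00412, which passed in neither (adjusted p = 0.446 and adjusted p = 0.113). Of 10 eosinophil genes 3, and of 11 basophil and mast cell genes 7, were lower than in sham, with medians of -0.76 and -0.63. In the refits with the brain-gene level and without replicates 9 and 12 these lower counts were 0 and 0 for eosinophil genes. For basophil and mast cell genes they were 0 and 1. The refit medians were -0.6 and -0.58 for eosinophil genes and -0.53 and -0.57 for basophil and mast cell genes.

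**Figure D5:**
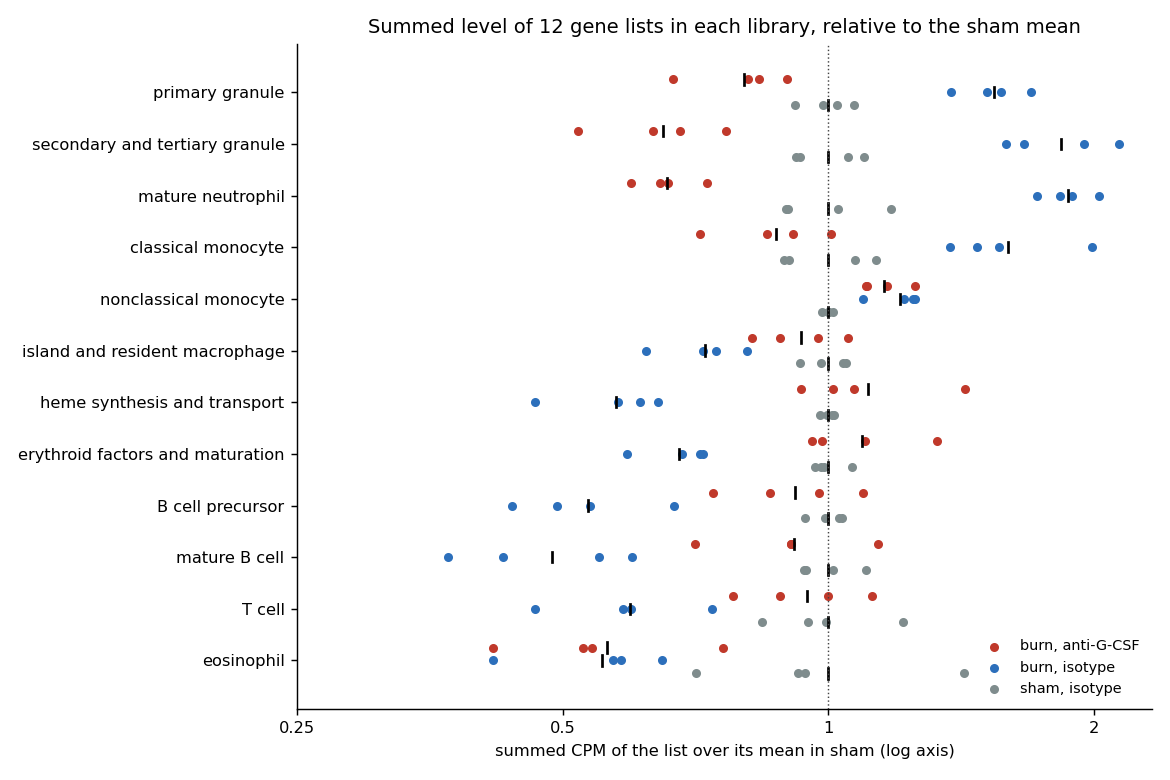
Summed CPM of 12 gene lists in each library divided by the mean of the 4 sham libraries, on a log2 axis, with burn anti-G-CSF above burn isotype and sham in each row. Points are libraries and the dotted line marks the sham mean. Summed B cell precursor genes average 0.918 of sham with anti-G-CSF and 0.534 with isotype.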

How the data were processed

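RNA of whole mouse bone marrow was read from 1 table of gene counts with 12 libraries in 3 groups of 4. The authors deposited raw counts, whole numbers that had not been normalised. Per the labels' protocols, libraries were strand-specific and made with a dUTP kit. The protocol describes polyadenylated RNA purification and also mentions RNA depleted of ribosomal and globin transcripts, without tying either to a library. The submitters' processing notes name the spliced aligner TopHat2 and the mouse build mm10 and give no versions. How reads were counted, with which strand setting and annotation, is not given in the sources used here. Genes that overlap, lie antisense or are near copies (such as Hbq1a and Hbq1b) therefore have uncertain counts. Total counts were 18780399 to 25708084 per library. Of the symbols, 27 had been turned into dates and were restored from their Entrez identifiers, and 11 were blank. Genes with mitochondrial names numbered 0. Chi-square tests over genes found no pair of libraries within a group that agreed within sampling noise.

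Genes were filtered with filterByExpr, scaled with TMM and tested 2-sided with edgeR 4.0.16 in R 4.3.3, by a robust quasi-likelihood model of all 12 libraries with 1 mean per group, at an adjusted p under 0.05. The SE was taken as the absolute log2 fold change divided by the root of the F statistic. The brain-gene level of a library averages the log2 CPM of the 18 brain genes. A gene followed it when its slope within groups exceeded 0.5 at an adjusted p under 0.05. Alternatives were other scalings and filters, the DESeq2 1.42.0 Wald test, limma 3.58.1 voom, only the 2 groups compared, stricter thresholds, the brain-gene level as a covariate, replicates 9 and 12 left out and each replicate left out. The test was checked on simulated counts. Figures were drawn with matplotlib 3.10.9 in Python 3.11.15.

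The comparison, its 43 gene lists and the alternatives were chosen with earlier results of these data known, and some genes are in more than 1 list. Genes were named by rule. It takes 16 fixed genes, the 12 largest rises and falls of genes whose groups do not overlap, whose log2 CPM averages 3 or more and that do not follow the brain-gene level, the 5 most abundant calls in each direction, the 5 largest rises and falls against sham, some members of every list out of its 4 smallest p-values, and members that moved against their list. Predicted genes and immunoglobulin and T cell receptor segments were left out. Ahsp, a listed globin chaperone, was not matched. Some genes that the rule takes are not reported here. Promoters came from the RefSeq table of GRCm38.p6.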

Additional observations from a re-analysis of the deposited data

Results flagged for a closer look

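Among the 132 tested genes named here, each of 396 gene and group combinations was searched for a library far from the other 3 of its group, by Dixon's gap over range at its 95% critical value. Such a library was found in 14 combinations, and chance alone flags about 1 in 20 groups. Lck was at 32.6 CPM in burn anti-G-CSF replicate 11, against 26.1 to 26.6 CPM in the other 3 libraries of that group. Msmo1 was at 39.4 CPM in burn anti-G-CSF replicate 12, against 31.6 to 32.2 CPM in the other 3 libraries of that group. Selp was at 9.05 CPM in burn anti-G-CSF replicate 12, against 6.34 to 6.74 CPM in the other 3 libraries of that group. Csf3r was at 573 CPM in burn isotype replicate 5, against 659.6 to 665 CPM in the other 3 libraries of that group. Slc2a1 was at 43.8 CPM in burn isotype replicate 6, against 33.3 to 34.9 CPM in the other 3 libraries of that group. Sptb was at 256 CPM in burn isotype replicate 5, against 339 to 351 CPM in the other 3 libraries of that group. Alpl was at 9.44 CPM in sham replicate 4, against 7.16 to 7.40 CPM in the other 3 libraries of that group. Fabp4 was at 19.1 CPM in sham replicate 1, against 22.7 to 23.0 CPM in the other 3 libraries of that group. Il1b was at 37.7 CPM in sham replicate 4, against 54.5 to 57.9 CPM in the other 3 libraries of that group. Isg15 was at 144 CPM in sham replicate 1, against 91.4 to 96.6 CPM in the other 3 libraries of that group. Mapk11 was at 6.78 CPM in sham replicate 1, against 11.3 to 11.6 CPM in the other 3 libraries of that group. Nkg7 was at 35.5 CPM in sham replicate 3, against 44.2 to 45.4 CPM in the other 3 libraries of that group. Prok2 was at 5.84 CPM in sham replicate 3, against 1.62 to 2.27 CPM in the other 3 libraries of that group. Tfrc was at 1053 CPM in sham replicate 1, against 929 to 939.7 CPM in the other 3 libraries of that group. The cause of these values was not tested.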

How the results depend on the processing

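Relative to burn with isotype, genes higher numbered 2703 and genes lower 2582. The alternatives that moved a count by over 1.5 times were library-size scaling (5762 higher, 1673 lower), only the 2 groups compared (1602 higher), an adjusted p under 0.01 (1208 higher), a test against a 1.5-fold change (84 higher, 480 lower), the brain-gene level as a covariate (1318 higher, 1552 lower) and replicates 9 and 12 left out (1280 higher). Leaving out 1 replicate gave 1639 to 3045 higher, lowest without burn isotype replicate 5, and 2103 to 2671 lower. Relative to sham, genes higher numbered 1083 and genes lower 598. These counts became 50 and 92 at an adjusted p under 0.01, 2 and 0 against a 1.5-fold change, 12 and 5 with the covariate, and 18 and 17 without replicates 9 and 12. Genes lower numbered 376 with library-size scaling, 1011 with the 20 most abundant genes left out and 996 by the DESeq2 Wald test. Leaving out 1 replicate gave 148 to 1414 higher and 177 to 857 lower. The cause of these moves was not tested.

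Of 132 tested genes named here, 7 lost their call under 1 or more alternatives apart from the stricter thresholds, namely Cd68, Nfe2, Hbb-y, Cd8a, Eno3, Fabp4 and Xbp1, and 0 called values changed sign. An adjusted p under 0.01 ended 5 calls and a test against a 1.5-fold change 58. No paired analysis was possible because replicate numbers run from 1 to 12 and none occurs in more than 1 group. At these depths genes under about 1 log2 CPM passed seldom, with 7.3% higher and 1.98% lower, so a missed call there says little.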

Other observations

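Jchain, which joins secreted antibody chains in plasma cells, had 231, 125, 82.9 and 242 CPM in the 4 anti-G-CSF libraries, against 32.4, 166, 71.3 and 42.8 CPM in the 4 isotype libraries. Its groups overlapped widely, and it did not pass (1.13 ± 0.71, adjusted p = 0.254, by the quasi-likelihood test of edgeR). Marco, a scavenger receptor of macrophages in the island and resident macrophage list, had 3.04, 9.70, 1.59 and 4.001 CPM in the 4 anti-G-CSF libraries, against 1.04, 0.513, 0.260 and 0.886 CPM in the 4 isotype libraries. Its groups did not overlap, the antibody libraries differed widely among themselves, and its log2 fold change of 2.75 ± 0.64, adjusted p = 0.00493 was the largest of that list.

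Rpl30, a ribosomal protein gene, had 0.349, 0.0911, 0.0882 and 0 CPM in the 4 anti-G-CSF libraries, against 0.605, 0.205, 0.608 and 0.133 CPM in the 4 isotype libraries. It was close to absent in every library and did not pass (-1.59 ± 0.77, adjusted p = 0.116), though it did without anti-G-CSF replicate 9, at -2.62 with adjusted p = 0.0359. These 3 genes were chosen after their values were seen.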
